A study of Mus musculus with 35 samples.

Results

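Brain RNA of mice lacking the beta2 adrenergic receptor was compared with that of wild type mice 24 h after sham surgery, the operation without the arterial occlusion. The comparison rests on 6 of the 35 arrays of the series: 3 knockout and 3 wild type arrays, chosen by their labels and normalized together with the arrays of the operated mice. All mice were male and of the FVB background, and RNA came from the hemisphere on the operated side. The knockout mice carried the receptor deficiency without a stated cell type restriction, and the age of the mice, the construction of the allele and whether each array was 1 animal are not given in the sources used here. For comparison the same genotypes were measured 24 h after middle cerebral artery occlusion (MCAO) in the ischemic hemisphere, with 7 arrays each, and in naive hemispheres, with 8 wild type and 7 knockout arrays that the authors normalized apart. Since the labels give only a replicate number, p-values measure the spread between arrays. In whole hemisphere RNA, fewer cells of a type and less RNA per cell cannot be told apart.

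The beta2 adrenergic receptor is a receptor for adrenaline and noradrenaline that couples to the stimulatory G protein, raises cyclic AMP and activates protein kinase A. In brain it is known from neurons, astrocytes, microglia and blood vessels, where it modulates plasticity, metabolism and inflammatory signalling. Sham surgery includes anaesthesia and a wound and is therefore not an untreated state. The comparison asks how the genotypes differ at the baseline against which the occluded hemispheres are read.

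Lower signal of the noncoding RNA 1500015A07Rik and of Pmaip1 in the knockout, higher signal of Ring1, and lower signal of the microglial gene Aif1 were among 14 genotype differences that were called both in the deposited values and after each array had been aligned for signal level. Calls required an adjusted p under 0.05 in limma (Benjamini-Hochberg, over the 18193 genes tested, each read by 1 probe set). With the deposited log2 values 1101 genes were called (6.05% of those tested), 641 higher (3.52%) and 460 lower (2.53%) in the knockout. After the alignment, a cyclic loess over the 20 surgery arrays, 14 were called (0.077%), 7 higher and 7 lower (0.0385% each). All 14 were called in the same direction in the deposited values, and their 3 knockout and 3 wild type arrays did not overlap in either, as held for 42.2% of all genes deposited and 31.7% aligned. The count depended on single arrays. With the deposited values it was 0 without wild type array 2 or without knockout array 3, with 3568 and 3075 genes at an unadjusted p under 0.05 in limma, 19 without knockout array 2, 105 without wild type array 3, 120 without wild type array 1 and 1120 without knockout array 1. After the alignment it was 71 without knockout array 1, and 1 or 2 without any other of the 6 arrays.

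The deposited values differed between the genotypes with the level of the signal. Over 10 bins of genes of equal size, ordered by mean signal, the median knockout minus wild type difference was 0.16 on the log2 scale in the dimmest bin, 0.23 in bins 2 and 3, -0.18 in bin 9 and -0.16 in the brightest. Of the genes called higher 507 of 641 lay in the 4 dimmest bins, and of those called lower 426 of 460 lay in the 5 brightest. The interquartile range of the log2 values was 3.78 to 3.97 in the wild type sham arrays and 3.44 to 3.55 in the knockout sham arrays. The actin control probe sets at the 3 prime end exceeded those at the 5 prime end by 0.93 ± 0.08 (SD, n = 3) in wild type and 1.66 ± 0.08 (SD, n = 3) in knockout sham arrays, without overlap. With this actin difference as a covariate, 6 genes were called in the deposited and 2 in the aligned values, 3 and 1 of them among the 14. The same difference of the Gapdh control probe sets was -0.23 in wild type and -0.26 in knockout sham arrays on average, also without overlap. With it as a covariate 1191 genes were called in the deposited values, all 14 among them. The Gapdh difference ran from -0.25 to 1.18 in the knockout MCAO arrays. Its fitted slope thus rests mainly on arrays other than the sham ones, and it could change the sham count little. The slope of the actin difference rests mainly on the MCAO arrays too. Its SD was 0.44 in wild type and 0.52 in knockout MCAO arrays, against 0.08 in each sham group. Since the actin difference separates the sham genotypes, as a covariate it also makes their contrast less precise. RNA quality and genotype cannot be told apart by either control in these 6 arrays. The shift ran the other way in the other sets, from -0.06 to 0.07 after MCAO and from -0.29 to 0.13 in naive mice between the dimmest and the brightest bin. Aligned values are given below beside the deposited ones.

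**Figure D1:**
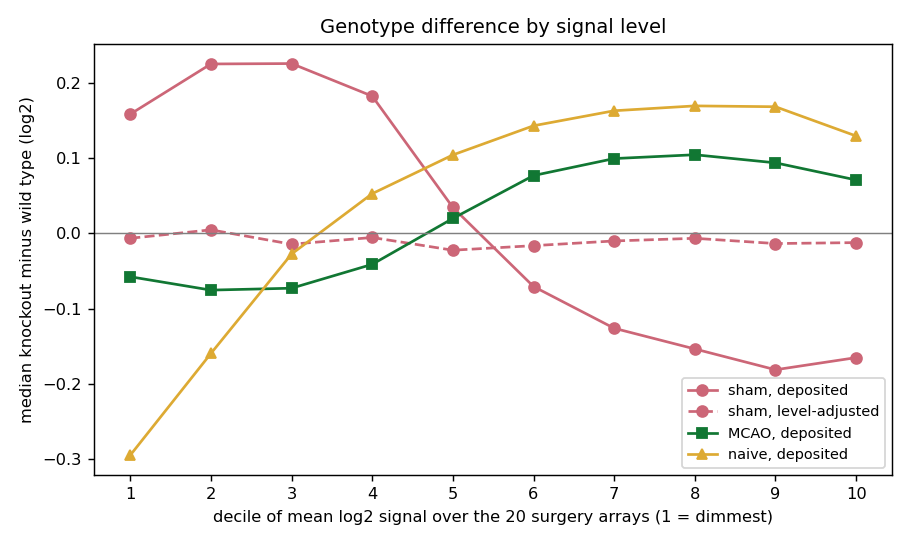
Median knockout minus wild type difference (log2) in each of 10 bins of genes by mean signal, for the sham arrays with deposited and aligned ("level-adjusted") values and for the MCAO and naive arrays with deposited values. In the sham arrays dim genes lie above 0, up to 0.23, and bright genes below 0, down to -0.18; the aligned medians stay near 0.

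1500015A07Rik, a long noncoding RNA gene of chromosome 18 in RefSeq, gave deposited log2 signals of 7.15, 7.17 and 7.07 in the wild type sham arrays and 6.19, 6.16 and 6.37 in the knockout arrays. The arrays of each genotype lay close together and well apart from the other genotype. The difference was -0.89 (SE 0.13, adjusted p = 0.00838 in limma) in the deposited and -1.005 (SE 0.13, adjusted p = 0.00299) in the aligned values, a 2.01-fold lower signal in the latter. It was the only one of the 14 that was called in the aligned values without each of the 6 arrays in turn (highest adjusted p = 0.0495), and it was called in 28 of 30 other settings. In the deposited values it missed the threshold without wild type array 2 (adjusted p = 0.0523) and without knockout array 3 (adjusted p = 0.0620).

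Pmaip1 codes for Noxa, a pro-apoptotic protein of the BH3-only class that p53 induces, and it also lies on chromosome 18. Its wild type sham arrays read 6.18, 6.30 and 5.64 and its knockout arrays 4.45, 4.63 and 4.55. All knockout arrays lay more than a log2 unit below the lowest wild type array. The difference was -1.50 (SE 0.30, adjusted p = 0.0183) in the deposited and -1.65 (SE 0.32, adjusted p = 0.0490) in the aligned values. The aligned call was lost without any of the 6 arrays, with adjusted p between 0.0510 and 0.280, while the difference stayed between -1.85 and -1.37 over all settings tried.

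Ring1 codes for a ubiquitin ligase of the polycomb repressive complexes that mark histone H2A. It read 7.93, 7.60 and 7.496 in wild type and 8.29, 8.74 and 8.69 in knockout sham arrays. The lowest knockout array, array 1, was closest to the highest wild type array, array 1. Ring1 rose by 0.90 (SE 0.18, adjusted p = 0.0188) in the deposited and 0.98 (SE 0.16, adjusted p = 0.0182) in the aligned values. Without knockout array 1 it remained called in the aligned values (adjusted p = 0.0130). Without each of the other 5 arrays it was not, with adjusted p up to 0.186.

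Aif1 codes for the calcium-binding protein Iba1, the usual stain of microglia, and lies on chromosome 17 like Ring1 and Togaram2. Its wild type arrays read 7.54, 7.58 and 7.53, and its knockout arrays read 6.85, 6.56 and 6.75. The wild type arrays were almost identical and the knockout arrays spread over about 0.3. The gene fell by 0.83 (SE 0.16, adjusted p = 0.0164) in the deposited and by 0.88 (SE 0.16, adjusted p = 0.0314) in the aligned values. The aligned call held without knockout array 1 and was lost without each of the others.

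Among the other 6 genes that were higher, Boll, an RNA-binding protein of male germ cells, showed the largest difference. It read 5.67, 5.37 and 5.45 in wild type and 6.55, 6.79 and 7.18 in knockout arrays, a difference of 1.34 in the deposited and 1.13 (adjusted p = 0.0145) in the aligned values. Nrip2, a nuclear receptor interacting protein, read 7.36, 7.66 and 7.63 against 8.38, 8.57 and 8.62, with an aligned difference of 1.05 (adjusted p = 0.0145). Nfkb2, the precursor of the NF-kappaB subunit of the noncanonical pathway, read 8.46, 8.14 and 8.36 against 9.02, 9.24 and 9.16, with an aligned difference of 0.96 (adjusted p = 0.0182). Qars, the glutaminyl-tRNA synthetase, read 9.58, 9.61 and 9.43 against 10.13, 10.20 and 10.27, with an aligned difference of 0.83 (adjusted p = 0.0182). These 3 genes were of middle to high signal, so alignment raised their difference, while it lowered that of the dim gene Boll. Togaram2, a protein of the family that regulates axonemal microtubules, read 7.36, 7.22 and 7.33 against 7.87, 7.83 and 8.02 (aligned difference 0.65, adjusted p = 0.0182). Klk1b27, a tissue kallikrein and so a serine protease, read 4.26, 4.28 and 4.40 against 4.94, 5.17 and 5.21, in bin 2 of the signal levels (aligned difference 0.57, adjusted p = 0.0321).

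On the lower side, Zfp141, a zinc finger protein, read 6.04, 5.90 and 5.92 in wild type and 5.36, 5.11 and 4.99 in knockout arrays, with an aligned difference of -1.03 (adjusted p = 0.0414). Tbc1d15, a GTPase-activating protein for Rab proteins that acts at mitochondria and lysosomes, read 9.43, 9.36 and 9.35 against 8.75, 8.47 and 8.42 (aligned difference -0.68, adjusted p = 0.0145). Plcl1, a catalytically inactive relative of phospholipase C that binds GABA-A receptors, read 7.66, 7.67 and 7.503 against 7.12, 6.94 and 7.02 (aligned difference -0.57, adjusted p = 0.0383). Anapc10, a substrate recognition subunit of the anaphase-promoting complex, read 8.47, 8.55 and 8.40 against 7.90, 7.69 and 7.80 (aligned difference -0.57, adjusted p = 0.0440). Of these 10 genes, counted from Boll on, all kept their direction in every setting tried, and Nrip2 was called most often, in 24 of 30 settings. The size varied: in its weakest setting Qars differed by only 0.02, Anapc10 by -0.27 and Boll by 0.31. With 1 array left out, aligned, Nrip2 was called in 3 of 6 cases and each of the other 9 in 1, without knockout array 1.

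**Figure D2:**
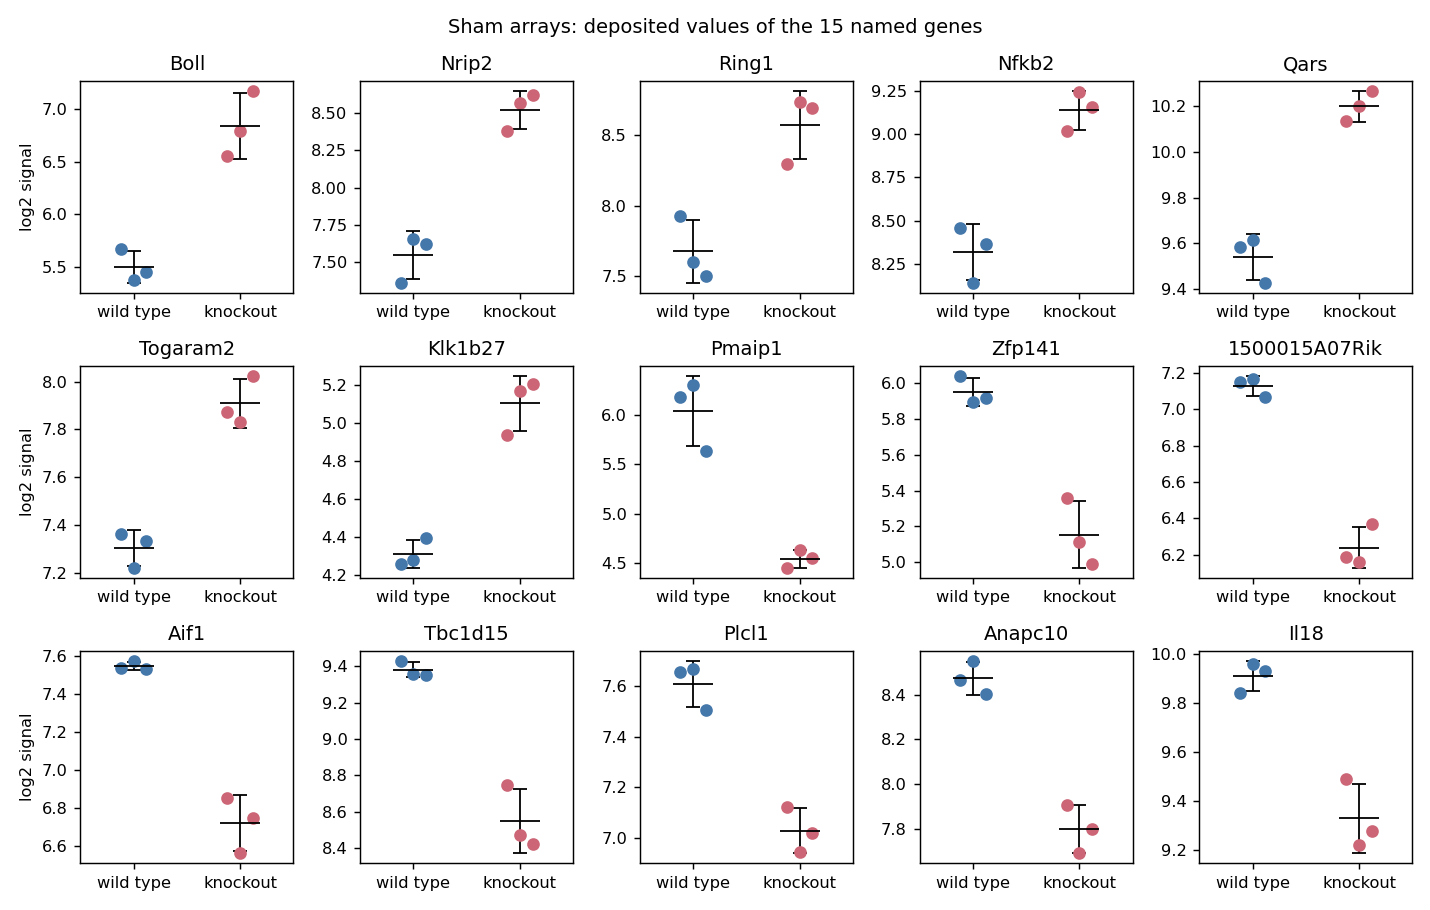
Deposited log2 signal of the 14 genes called in both kinds of values and of Il18, called in the deposited values only; points are the 3 wild type (blue) and 3 knockout (red) sham arrays, lines the mean ± SD, and axes do not start at 0. In every panel the arrays of the genotypes do not overlap, with the widest step for Pmaip1 (6.04 against 4.54 on average) and Boll.

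Other probe sets of the same genes did not all give the difference. Of the 14 genes 7 had 1 probe set: 1500015A07Rik, Pmaip1, Ring1, Aif1, Togaram2, Klk1b27 and Zfp141. When every probe set was fitted on its own in aligned values, the second probe set of Nfkb2 differed by -0.03 (adjusted p = 0.963) against 0.97 for the brighter one. The other Qars probe sets differed by -0.18, 0.08 and -0.27, none of them called, against 0.84. A second Anapc10 probe set differed by 0.03 (adjusted p = 0.928), and the Boll probe sets, all dimmer, by 0.23, 0.13 and -0.05. For Nrip2 the other values were 0.48 and 0.25 (adjusted p = 0.0820 and 0.533), for Tbc1d15 -0.20 and -0.20, and for Plcl1 -0.66 (adjusted p = 0.107). The Plcl1 probe sets thus had differences of similar size, while the other probe sets of Nfkb2, Qars, Anapc10, Boll, Nrip2 and Tbc1d15 gave smaller or opposite ones, none of them called.

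Boll and Plcl1 stand next to each other on chromosome 1 among the genes tested, and differed in opposite directions. Of the 30 genes next to the 15 named genes, 2 were called in aligned values, which are Boll and Plcl1 themselves. H2-K1, the classical MHC class I gene beside Ring1, read 10.22, 10.49 and 10.08 in wild type and 9.80, 9.04 and 9.08 in knockout arrays. It was called in the deposited values (-0.96, adjusted p = 0.0353) and not in the aligned ones (-0.79, adjusted p = 0.168), and its other 3 probe sets ranged from -0.13 to 0.38 aligned, none of them called. By chromosome, the 14 (0.077% of all genes) included 3 of 834 genes of chromosome 17, 2 of 459 of chromosome 18, 2 of 1057 of chromosome 1 and 2 of 1413 of chromosome 7. Chromosomes 6, 8, 9, 10 and 19 held 1 each.

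The differences were then set beside those of knockout and wild type after MCAO and in naive mice, which use other arrays. In aligned values 7 genes were called after MCAO (0.0385% of those tested), and 3 of them, 1500015A07Rik, Pmaip1 and Ring1, were also called after sham in the same direction. These 3 are 42.9% of the MCAO list and 21.4% of the sham list. In the deposited values 5 of the 8 called after MCAO (0.044%) were shared with the sham list in direction, or 0.454% of the latter: the same 3, Il18 and Tmem243, the last named after its values were seen. In naive mice 2689 genes were called in deposited values (14.8%) and 1919 in aligned ones (10.5%), and without wild type array 6 it was 6664 (36.6%) and 4410 (24.2%). That array's actin difference was 4.88, against 0.28 to 0.72 in the other wild type naive arrays. The median deposited signal over genes ran from 7.58 to 7.99 in wild type and from 8.08 to 8.12 in knockout naive arrays, without overlap. Some knockout naive arrays shared a value exactly. Arrays 1, 5 and 6 read 6.36919 for 1500015A07Rik, and arrays 2, 4 and 5 read 9.41435 for Tbc1d15. Whether the 2 naive genotypes were summarized together and put on 1 scale was not tested. An offset of single genes would remain after the alignment, which acts by signal level. This limits the naive counts, differences and p-values. Of the 14 genes 1500015A07Rik, Pmaip1 and Aif1 were called in naive mice in the direction seen after sham, and Ring1 joined them without wild type array 6. Klk1b27 and Nrip2 were called in the opposite direction with and without that array. In the deposited values 42 genes were called in the same direction after sham and in naive mice and 90 in opposite directions, 3.81% and 8.17% of the sham list and 1.56% and 3.35% of the naive list. Without wild type array 6 these counts were 97 and 172.

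1500015A07Rik ran from 7.05 to 7.52 (median 7.48) in wild type and from 6.09 to 6.44 (median 6.18) in knockout mice after MCAO. In naive mice it ran from 7.07 to 8.41 (median 7.51) and from 6.10 to 6.46 (median 6.37). In neither set did the genotypes overlap, but the share of all genes without overlap in these sets was not counted. Its aligned differences were -1.005 after sham, -1.09 (SE 0.08, adjusted p = 6.24e-07) after MCAO and -1.26 (SE 0.09, adjusted p = 1.18e-07) in naive mice without wild type array 6.

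Pmaip1 ran from 7.04 to 8.84 (median 7.70) in wild type and from 5.88 to 6.80 (median 6.23) in knockout mice after MCAO. The naive ranges were 6.32 to 8.09 (median 7.46) and 4.70 to 5.04 (median 4.91). The genotypes did not overlap in either set, although both genotypes read higher after MCAO than after sham. The aligned differences were -1.44 (SE 0.21, adjusted p = 0.00491) after MCAO and -2.23 (SE 0.23, adjusted p = 5.4e-06) in naive mice without wild type array 6.

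Ring1 after MCAO ran from 7.44 to 8.09 (median 7.55) in wild type and from 7.90 to 8.59 (median 8.42) in knockout mice, with some overlap. Its naive ranges, 6.58 to 8.76 (median 8.54) and 8.80 to 9.24 (median 9.08), did not overlap but nearly met. The medians over all genes of the naive arrays also lay apart, at up to 7.99 in wild type and from 8.08 in knockout. The aligned difference of Ring1 was 0.61 (SE 0.11, adjusted p = 0.0357) after MCAO. In naive mice it was 0.57 (adjusted p = 0.149) with all arrays and 0.35 (SE 0.09, adjusted p = 0.00829) without wild type array 6.

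Aif1 overlapped between the genotypes after MCAO and in naive mice. Its aligned difference was -0.25 (adjusted p = 0.270) after MCAO and -0.29 (SE 0.05, adjusted p = 0.000666) in naive mice without wild type array 6. With the deposited values the naive difference was -0.14 without that array and missed the threshold (adjusted p = 0.0784). Il18, a cytokine of the interleukin-1 family, read 9.84, 9.96 and 9.93 in wild type and 9.49, 9.22 and 9.27 in knockout sham arrays. It fell in the deposited values by 0.58 after sham (adjusted p = 0.0160), by 0.47 after MCAO (adjusted p = 0.0118) and by 0.58 in naive mice (adjusted p = 0.0427). Aligned, its sham difference was -0.42 (adjusted p = 0.0863) and its MCAO difference -0.57 (adjusted p = 0.000953). Tmem243, a small membrane protein, read 7.58, 7.58 and 7.30 against 6.86, 6.84 and 6.31 after sham (deposited -0.82, adjusted p = 0.0201; aligned -0.79, adjusted p = 0.0806).

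**Figure D3:**
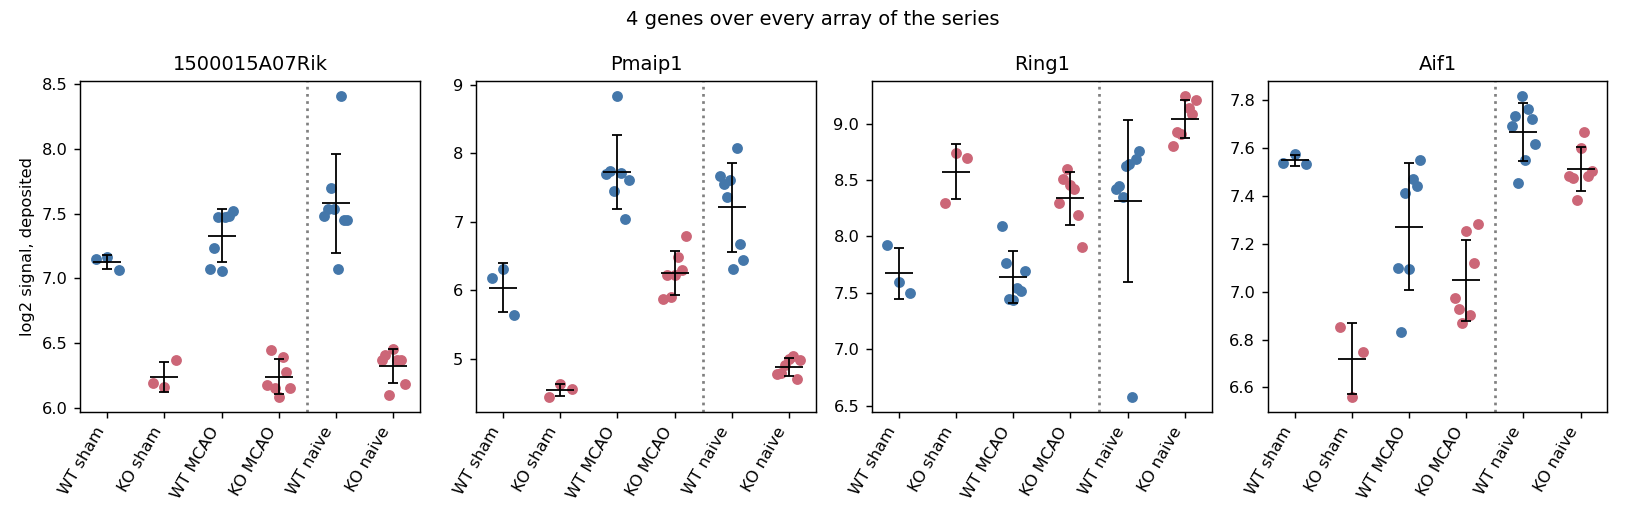
Deposited log2 signal of 1500015A07Rik, Pmaip1, Ring1 and Aif1 in every array of the series (wild type blue, knockout red), with mean ± SD; the dotted line separates the naive arrays, which were normalized apart and are not comparable in level. The genotypes do not overlap in any of the 3 settings for 1500015A07Rik and Pmaip1, while Aif1 overlaps after MCAO and in naive mice.

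The interaction of the surgery fit tested whether the genotype difference after MCAO differed from that after sham. It was called for 88 genes in aligned values (0.484% of those tested), among them 7 of the 14: Boll, Nrip2, Nfkb2, Qars, Togaram2, Klk1b27 and Zfp141. The 14 were chosen by their sham difference, which enters the interaction, so this count is a description and gives no independent support. For Nfkb2 the genotype difference was -0.32 after MCAO and 0.96 after sham, an interaction of -1.27 (SE 0.19, adjusted p = 0.0289). Nrip2 differed by 0.03 after MCAO, with an interaction of -1.02 (SE 0.19, adjusted p = 0.0395). Zfp141 differed by 0.31 after MCAO and -1.03 after sham, an interaction of 1.34 (SE 0.23, adjusted p = 0.0377). For 1500015A07Rik the interaction was -0.08 (SE 0.15, adjusted p = 0.829), for Pmaip1 0.21 (SE 0.38, adjusted p = 0.818) and for Ring1 -0.37 (SE 0.19, adjusted p = 0.316). The number of interaction calls over all genes in aligned values was 65 without knockout sham array 1 and 0 without each of the other 5 sham arrays.

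**Figure D4:**
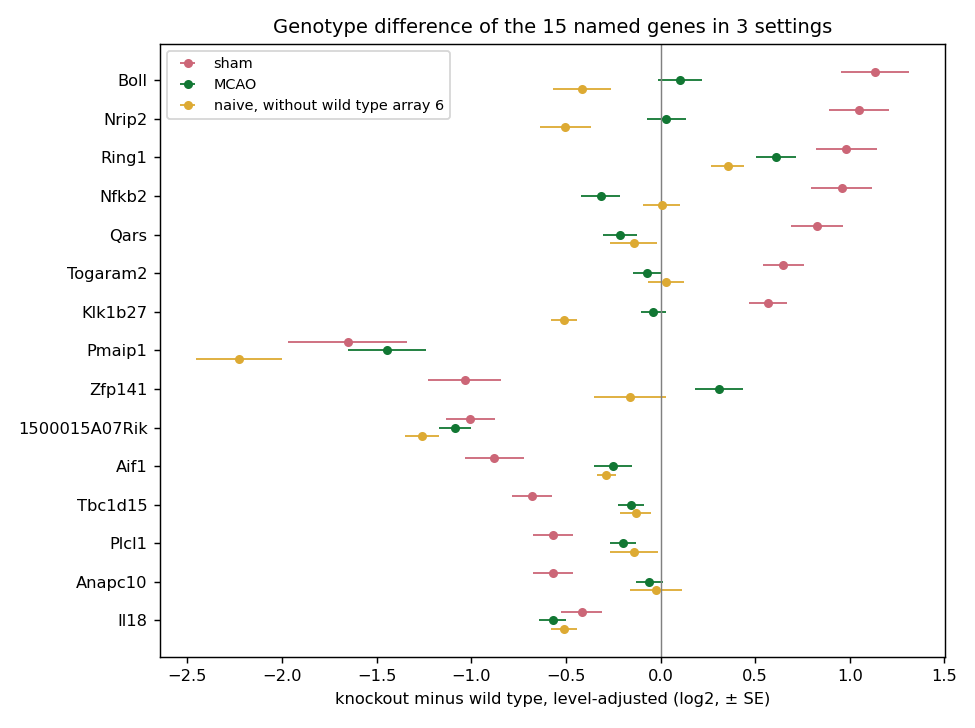
Aligned knockout minus wild type difference (log2, ± SE) of the 15 named genes after sham, after MCAO and in naive mice without wild type array 6. The values of 1500015A07Rik (-1.005, -1.09 and -1.26) and Pmaip1 lie on the same side in all 3, while Nfkb2 lies at 0.96 after sham, -0.32 after MCAO and 0.01 in naive mice.

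Promoter windows are shown for 3 of the genes, because the missing receptor acts through cyclic AMP, whose classic target is the cAMP response element, and because Nfkb2 is itself a target and a subunit of NF-kappaB. RefSeq windows around annotated transcription starts (GRCm38.p6) were matched for 11 of the 13 named genes that were looked up. The cAMP response element TGACGTCA, which reads the same on both strands, stood in a window of 1 of the 11, Anapc10, and in 2.03% of the 27025 genes with a window. The kappaB consensus, searched on both strands, stood in windows of 3, Boll, Nfkb2 and Ring1, and in 9.55% of all genes. Capitals mark the matches in the lines below; those of the Nfkb2 window overlap each other in part. The Ring1 window is chr17:34024631-34024930 on the minus strand, the Nfkb2 window chr19:46304487-46304786 on the plus strand, and the Anapc10 window chr8:79711513-79711812 on the plus strand.
Ring1: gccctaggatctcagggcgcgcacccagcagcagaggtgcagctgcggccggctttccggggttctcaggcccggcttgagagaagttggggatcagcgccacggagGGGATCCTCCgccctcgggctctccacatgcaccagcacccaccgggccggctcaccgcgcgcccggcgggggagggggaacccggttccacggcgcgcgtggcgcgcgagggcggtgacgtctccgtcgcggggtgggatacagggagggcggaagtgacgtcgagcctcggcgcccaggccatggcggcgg
Nfkb2: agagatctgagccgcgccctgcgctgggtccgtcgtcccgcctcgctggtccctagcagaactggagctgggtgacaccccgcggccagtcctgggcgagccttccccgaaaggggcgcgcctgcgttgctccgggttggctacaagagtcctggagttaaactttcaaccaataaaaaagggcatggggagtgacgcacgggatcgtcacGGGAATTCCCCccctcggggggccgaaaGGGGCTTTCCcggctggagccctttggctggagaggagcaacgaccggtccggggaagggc
Anapc10: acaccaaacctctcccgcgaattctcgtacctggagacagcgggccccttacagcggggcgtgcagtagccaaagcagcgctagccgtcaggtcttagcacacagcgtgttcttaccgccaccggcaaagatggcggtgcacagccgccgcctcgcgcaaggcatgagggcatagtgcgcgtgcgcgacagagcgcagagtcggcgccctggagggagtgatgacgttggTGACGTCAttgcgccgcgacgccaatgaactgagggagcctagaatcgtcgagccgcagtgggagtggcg
A match of letters is a description of the window and was not tested as a binding site. Read by the brightest probe set, the genes with a match differed in both directions after sham: Ring1, Nfkb2 and Boll were higher and Anapc10 was lower. The other probe sets of Nfkb2, Boll and Anapc10 were not called.

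Of 16 measured microglial genes only Aif1 was called, lower in the deposited and in the aligned values, where 2.53% and 0.0385% of all genes were called lower. With Aif1 included, 10 genes were below 0 and 6 above in the deposited values, and 12 and 4 in the aligned ones, which reached up to 0.23. The median difference was -0.21 deposited and -0.16 aligned, beside 0.02 and -0.01 over all genes. The members with the smallest aligned p besides Aif1 were all below 0. Gpr34, a lysophospholipid receptor of resting microglia, read 7.21, 7.27 and 6.89 in wild type and 6.51, 6.12 and 6.32 in knockout arrays (aligned difference -1.04, adjusted p = 0.107). Sall1, the transcription factor of microglial identity, read 6.85, 7.19 and 6.86 against 6.63, 6.17 and 6.11 (-0.78, adjusted p = 0.118), and its other probe set differed by -0.02. The purinergic receptor P2ry13 differed by -0.39 (adjusted p = 0.211). In aligned values 5 of the 16 genes had knockout arrays all below the wild type arrays, where 17% of all genes did, and none had them all above. The aligned mean of the list ran from 7.90 to 8.21 in wild type and from 7.72 to 7.82 in knockout arrays. Such a lack of overlap held for 17 of all 43 lists. After MCAO and in naive mice without wild type array 6 the list's aligned medians were 0.18 and 0.22.

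Lymphocyte genes, which were dim, all lay above 0 in the deposited values. Of the 11 genes 1 was called higher there, and none in the aligned values. In the deposited values 3.52% of all genes were called higher, 148 of 1819 in bin 2 and 144 of 1819 in bin 3. The list's median level of 4.99 lay between the median levels of these bins. Aligned, 10 of the 11 were above 0. The differences had a median of 0.35 deposited and 0.11 aligned, and the mean deposited level of the list ran from 5.16 to 5.20 in wild type and from 5.40 to 5.65 in knockout arrays. Cd8a, the coreceptor of cytotoxic T cells, read 6.12, 6.38 and 6.26 against 6.75, 7.05 and 7.13 (deposited 0.72, adjusted p = 0.0164; aligned 0.57, adjusted p = 0.0510), and 2 of its other 4 probe sets were below 0 when aligned. The T cell receptor component Cd3e differed by 0.34 aligned (adjusted p = 0.252). Of 14 genes of infiltrating monocytes and neutrophils, 11 were above 0 and 3 below in the deposited values, and 8 and 6 in the aligned ones. In the deposited values 1 was called higher, where 3.52% of all genes and 144 of 1819 genes in bin 3 of the signal levels were, the granule enzyme Mpo (4.77, 5.08 and 5.21 against 5.86, 5.64 and 6.13; aligned 0.62, adjusted p = 0.101).

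Genes of organs other than brain had mostly positive differences, at a median level of 4.62. Of 71 measured genes of placenta, skin, secretory glands and germ cells, 13 were called higher and 0 lower in the deposited values, where 3.52% and 2.53% of all genes were. In bin 2 of the signal levels, near the median level of the 71, 148 of 1819 genes were called higher and 1 lower. Of the 71 genes 66 were above 0 and their median was 0.30. Aligned, 2 were called higher, Boll and Klk1b27, and the median was 0.12. The germ cell gene Hsf2bp read 4.91, 4.85 and 5.16 against 5.68, 5.78 and 5.64 (deposited 0.72, adjusted p = 0.00838; aligned 0.48, adjusted p = 0.0507), and its other probe set differed by -0.02 aligned. Klk1b5, another kallikrein, differed by 0.75 deposited (adjusted p = 0.0111) and 0.56 aligned (adjusted p = 0.0507), and the placental prolactin relative Prl2b1 by 1.07 (adjusted p = 0.0160) and 0.83 (adjusted p = 0.0587). The other Klk1b5 and Prl2b1 probe sets differed by 0.32 and -0.12 aligned. The part of these genes and of signal level in the results was not tested.

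Chaperones lay mostly below 0, 17 of 18 deposited and 15 of 18 aligned. Of the 18 heat shock proteins and chaperones 2 were called lower in the deposited values, where 2.53% of all genes and 120 of 1820 in the brightest bin were, and none in the aligned ones. Hspa1b, the stress-induced chaperone of the Hsp70 class, read 9.85, 10.21 and 9.97 in wild type and 8.998, 8.10 and 8.08 in knockout arrays, the largest fall of any gene in the deposited values (-1.61, SE 0.36, adjusted p = 0.0224; 3.06-fold). Aligned it differed by -1.46 (adjusted p = 0.0836), and its other 2 probe sets by -1.12 and -1.17. Hspa4 differed by -0.53 deposited (adjusted p = 0.0473) and -0.36 aligned. In aligned values 8 of the 18 had knockout arrays all below wild type, where 17% of all genes did, and none all above, with list medians of -0.26 deposited and -0.13 aligned. The aligned difference of Hspa1b was 0.05 after MCAO (adjusted p = 0.952) and -0.60 in naive mice without wild type array 6 (adjusted p = 4.19e-06). The endoplasmic reticulum chaperone Hsp90b1 differed by -0.54 deposited (adjusted p = 0.0254) and -0.38 aligned (adjusted p = 0.141).

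Of 18 circadian clock genes 1, the repressor Cry1, was called lower in the deposited values, where 2.53% of all genes were, and none in the aligned values. It read 7.64, 7.70 and 7.63 in wild type and 7.37, 6.86 and 6.96 in knockout arrays (deposited -0.59, adjusted p = 0.0404; aligned -0.60, adjusted p = 0.0863). The clock output factor Dbp read 11.78, 11.48 and 11.49 against 10.76, 10.66 and 10.75 (aligned -0.70, adjusted p = 0.213), without overlap. Its other probe set differed by -0.18 aligned. Per3 and Per2 differed by -0.59 and -0.49 aligned, not called. In aligned values 6 of the 18 lay lower without overlap and 1 higher, where 17% and 14.7% of all genes did. Collection times of day are not given in the sources used here.

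Of 30 genes of the cyclic AMP pathway, the route on which the missing receptor signals, 2 were called lower in the deposited values. None was called in the aligned values. In the deposited values 2.53% of all genes were called lower, and 112 of 1819 in bin 9, near the list's median level of 9.70. The list's median difference was -0.11 deposited and 0.02 aligned, so its sign turned with the alignment. Below 0 were 22 genes deposited and 11 aligned, and above 0 were 8 and 19. In aligned values 5 lay higher without overlap and 3 lower, where 14.7% and 17% of all genes did. Akap9, an anchor of protein kinase A, differed by -0.67 deposited (adjusted p = 0.0300) and -0.52 aligned (adjusted p = 0.0997), and Prkaca, a catalytic subunit of the kinase, by -0.54 (adjusted p = 0.0499) and -0.37 (adjusted p = 0.220). The second Prkaca probe set differed by 0.50 aligned, and the other Akap9 probe sets ranged from -0.85 to 0.36. The anchor Akap5 differed by -0.67 aligned (adjusted p = 0.186), with its other 2 probe sets at -0.65 and -0.71. Both measured members of the other adrenergic receptors were above 0 with medians of 0.13 and 0.12, and neither was called.

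Of 15 ionotropic glutamate receptor genes 1 was called higher and 1 lower in the deposited values, where 3.52% and 2.53% of all genes were, and none in the aligned ones. Grin2d, an NMDA receptor subunit, read 7.66, 7.42 and 7.33 in wild type and 8.05, 8.16 and 8.29 in knockout arrays (aligned 0.76, adjusted p = 0.0546), with 0.38 for its other probe set. Grik3, a kainate receptor subunit, read 8.66, 8.80 and 8.49 against 8.05, 7.73 and 7.13 (aligned -0.93, adjusted p = 0.0863), and its other probe set differed by 0.43. The potassium channel Kcna4 differed by -0.88 aligned (adjusted p = 0.101). Of 18 genes of the synaptic vesicle and release machinery none was called, 8 lay higher in the knockout without overlap in aligned values (14.7% of all genes), and Syn1, a vesicle phosphoprotein, differed by 0.35 (adjusted p = 0.0886).

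Beta protocadherins, adhesion molecules of neurons coded in a cluster on chromosome 18, included no called gene. Of 22 measured genes 18 were below 0 and 4 above in aligned values, and 14 and 8 in the deposited ones. In aligned values 10 had knockout arrays all below the wild type arrays, where 17% of all genes did, and none all above, and the median was -0.32 aligned and -0.13 deposited. Pcdhb20 read 7.75, 7.88 and 7.72 against 7.33, 7.21 and 7.15 (aligned -0.59, adjusted p = 0.121), and Pcdhb7 differed by -0.59 (adjusted p = 0.123). After MCAO the list's aligned median was 0.00, and in naive mice without wild type array 6 it was 0.11.

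Genes that mark brain regions varied within each genotype. The 13 genes of striatal medium spiny neurons, none of them called, had a mean of 8.46 to 10.57 in wild type and 8.75 to 10.29 in knockout arrays when aligned. Drd1, the dopamine receptor of these neurons, read 9.68, 10.68 and 8.34 in wild type and 9.95, 8.28 and 8.37 in knockout arrays, and Gpr6, an orphan receptor of striatal neurons, read 8.46, 9.54 and 6.15 against 8.51, 6.25 and 6.41. Wild type arrays 1 and 2 and knockout array 1 were thus high and wild type array 3 and knockout arrays 2 and 3 low in both genes. The 13 thalamic and hypothalamic genes had the highest median of all lists, 0.59 deposited and 0.39 aligned, with a mean of 6.70 to 7.28 in wild type and 7.09 to 8.01 in knockout arrays, and none was called. The part of the tissue taken in these results was not tested.

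Genes of protein turnover and RNA processing were called lower in the deposited values only, where 2.53% of all genes and 120 of 1820 in the brightest bin were. Of 17 ubiquitin and proteasome genes 4 were lower, among them Psma2 (-0.48, adjusted p = 0.0188), Psmc1 and Psmc4, and of 19 RNA splicing factors 4, among them Srsf3 (-0.58, adjusted p = 0.0250), U2af1 and Tra2a. The median level of the ubiquitin and proteasome list, 10.85, lay well above the 7.46 of all genes, and so did that of the splicing list. Aligned, none was called and the list medians moved from -0.22 to -0.05 and from -0.28 to -0.12. Of all 43 lists, 39 had no called member in aligned values, and the 4 others had 1 each: Aif1, Nfkb2, Boll and Klk1b27. Besides Nfkb2 none of 12 NF-kappaB genes was called, and 9 of the 12 were above 0 in aligned values. Nfkbiz, an atypical inhibitor, lay at -0.70 (adjusted p = 0.175), with its other probe sets at 0.37 and -0.13. The chemokines Cxcl1 and Cxcl16 differed by 0.72 and 0.54 aligned, not called, and 18 of 20 cytokine and chemokine genes were above 0 (medians 0.28 deposited and 0.13 aligned). The sign of the median turned with the alignment in 8 lists.

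**Figure D5:**
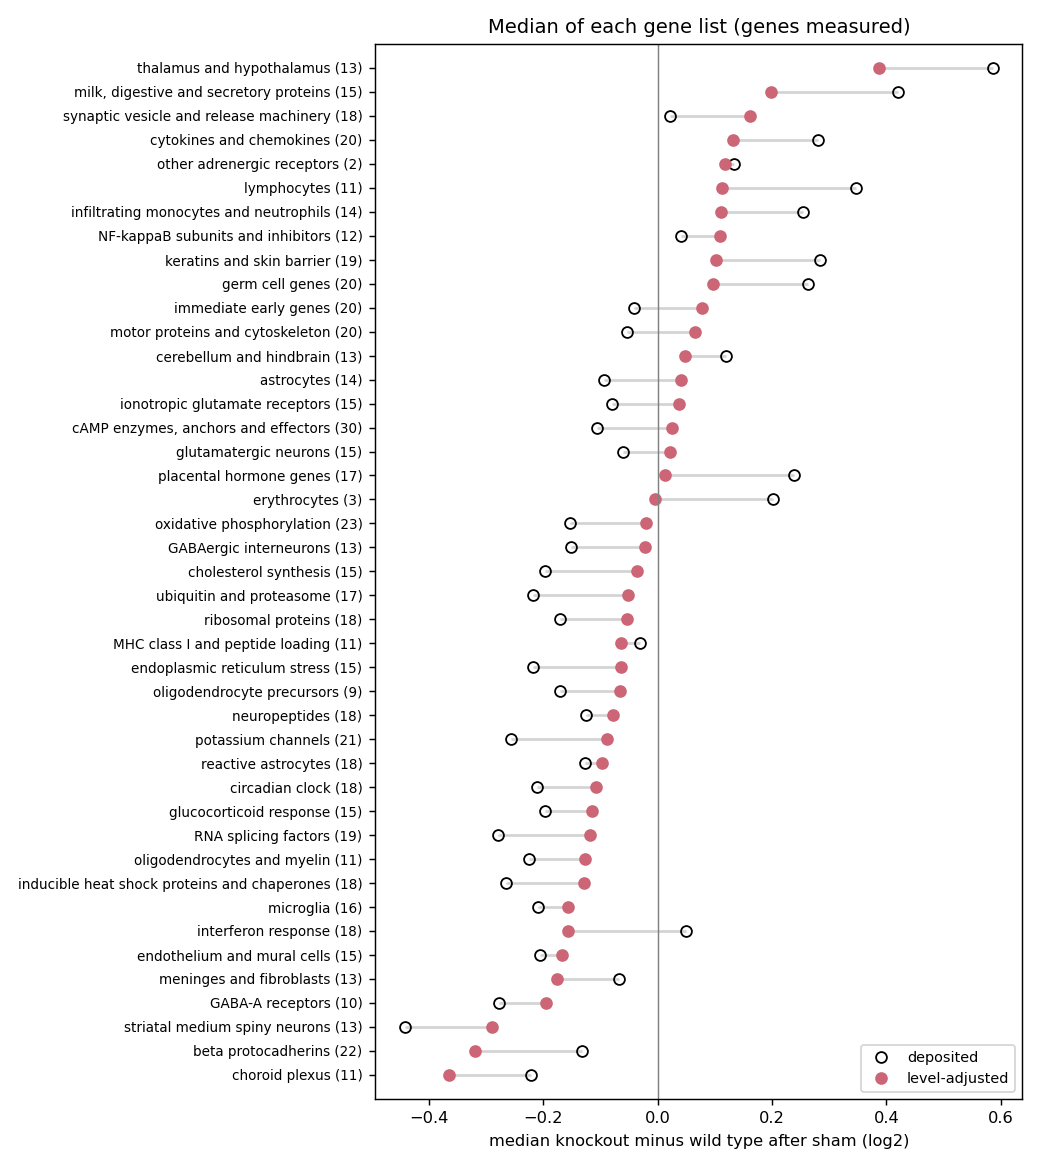
Median knockout minus wild type difference after sham (log2) of each of the 43 gene lists, with deposited (open) and aligned (filled) values and the number of genes measured. Lists of dim genes, such as lymphocytes (0.35 to 0.11), shift down and lists of bright genes, such as RNA splicing factors (-0.28 to -0.12), shift up with the alignment.

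A gradient with gene length remained in the aligned values. Over 10 bins of the 18145 genes with a genomic length in RefSeq, the median knockout minus wild type difference went from 0.02 in the shortest to -0.05 in the longest, whose median lengths were 2022.5 and 199570 bases. In the longest bin 346 of 1815 genes lay lower in the knockout without overlap and 185 higher, where 17% and 14.7% of all genes did, and in the shortest bin of 1816 genes it was 204 and 292. After MCAO the gradient ran the other way, from -0.03 to 0.05.

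The number of calls in aligned values rose steeply just past the threshold. At an adjusted p under 0.06 it was 80 and at one under 0.10 it was 503. Just outside lay, all at an adjusted p of 0.0507, Dcaf10 (-0.65), Adam10 (-0.47), Scfd1 (-0.49), Tigd5 (0.81), Nkx2-5 (0.52) and Ppp1r13l (1.07), and Pmaip1 at 0.0490 lay just inside. In aligned values 5760 of all genes (31.7%) had genotypes that did not overlap, and 7678 (42.2%) in the deposited ones. At an unadjusted p under 0.05 it was 3116 (17.1%) and 4702 (25.8%).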

How the data were processed

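RNA of mouse brain hemispheres was measured on Affymetrix arrays. Per the submitters' processing notes the authors used RMA, which gives background-corrected, quantile-normalized log2 values; its version is not given in the sources used here. Of 45101 probe sets 34945 had 1 gene symbol, 932 had several, 9160 had none listed and 64 were controls. The brightest probe set over the 20 surgery arrays stood for each of 18193 genes. The gene of the deleted receptor is left out.

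Linear models (limma 3.58.1 in R 4.3.3, moderated by eBayes) were fitted to the 20 surgery arrays in 4 groups and, apart, to the 15 naive arrays, with Benjamini-Hochberg adjustment; every adjusted p is limma's. Level-adjusted (aligned) values came from normalizeCyclicLoess (method fast, span 0.4, 3 iterations). Named were genes called in both kinds of values without overlap (at most 15 each way), up to 4 members per list by aligned p, and genes called in all 3 genotype comparisons; of these list members a part is described, picked after their values were seen. The members and lists were chosen with earlier results of these data known. Alternatives were other scalings, filters, fits, covariates and probe set rules and each array left out. The fit was tested on simulated data with noise drawn apart for each gene and array. Such data lack effects shared by the genes of a single array, so the test does not cover those. The number of arrays limits the precision.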

Additional observations from a re-analysis of the deposited data

Results flagged for a closer look

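For 7 of the 14 genes the interaction of genotype and surgery passed the threshold in limma, aligned values. These genes were chosen by their sham difference, which is part of the interaction, so the test is not independent of that choice. The difference of the differences was -1.03 for Boll, -1.02 for Nrip2, -1.27 for Nfkb2, -1.04 for Qars, -0.72 for Togaram2, -0.61 for Klk1b27 and 1.34 for Zfp141. Their adjusted p lay close to the threshold, at 0.0478 for Boll and 0.0289 for Nfkb2, and without any sham array other than knockout array 1 no gene was called in this test.

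Single genes and the actin difference were tested within groups of arrays for 1 array that stood apart, and 8 of 68 tests flagged 1. Chance flags about 1 in 20 independent tests. These tests used the same arrays over and over, so the 8 cannot be weighed against that rate. Wild type naive array 6 was the flagged array in 5 of the 8. These were Ring1 at 6.58, Zfp141 at 8.53, 1500015A07Rik at 8.41, Il18 at 11.70 and the actin 3 prime minus 5 prime difference at 4.88. The others were Pmaip1 at 8.84 in wild type MCAO array 4, Plcl1 at 8.23 in knockout naive array 3 and Tmem243 at 7.10 in knockout naive array 7. The sham groups, of 3 arrays each, were too small for this comparison.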

How the results depend on the processing

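The number of genes called after sham, 1101 with the deposited values, moved by more than 1.5 times under most other settings. It was 14 aligned, 565 with each array centred on its median, 71 with quantile normalization repeated, 5891 with array weights, 3451 with only the 6 sham arrays (871 aligned), 1697 with every probe set tested on its own, 6 with the actin covariate (2 aligned), 6 at an adjusted p under 0.01 and 432 at 1.5-fold or more. Without the 40% dimmest genes it was 450, 99 higher and 351 lower, and 45 aligned. The mean of the probe sets gave 1078, with 12 of the 14 among them, and 125 aligned, with 8 of the 14. Aligned with a span of 0.2 it was 29 and of 0.7 it was 38, and at thresholds of 0.06 and 0.10 it was 80 and 503; these 4 settings were chosen after seeing the data. With the replicate number as a block 832 genes were called, and 19 aligned. The numbers did not pair the arrays: same-numbered arrays had correlations of deviations of 0.13, -0.28 and 0.20, and not every array correlated best with its own number. Leaving out 1 array gave 0 to 1120.

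The 42 genes called in the same direction after sham and in naive mice (90 in opposite directions) became 3 when aligned (2 opposite), 97 without wild type naive array 6 (172 opposite) and 4 without it when aligned (2 opposite), both added after seeing the data, and 0 to 97 with 1 array left out. The 5 called alike after sham and MCAO became 3 when aligned, 2 with each surgery in its own fit, added after seeing the data, and 0 to 6 with 1 array left out. Of 2340 recomputed differences of named genes 1 changed sign: Prkaca, at 0.044 for the aligned mean of its probe sets. Of 301 recomputed list medians 39 moved by more than the spread between arrays. With 3 arrays per genotype and a threshold on which many genes lie, these data limit which genes can be called; the causes were not tested.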
